A study of Mus musculus with 31 samples.

Results

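The 86 genes described here encode the nuclear subunits of the oxidative phosphorylation machinery. They were chosen by symbol alone, as protein-coding genes that begin with Ndufa, Ndufb, Ndufc, Ndufs, Ndufv, Uqcr, Atp5 or Cox4 to Cox8, with Sdha, Sdhb, Sdhc, Sdhd and Cyc1 added and the Ndufaf assembly factors left out. They make up 86 of the 52636 genes in the table, 38 of complex I, 4 of complex II, 9 of complex III, 18 of complex IV and 17 of complex V. The prefix decides the complex here, so Ndufa4, now known as a subunit of complex IV, and its paralog Ndufa4l2 are counted with complex I, and Cox7a2l, which helps to join complexes, and Atp5s, a coupling factor, are included.

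Expression was measured in caudate putamen (CPu), the dorsal part of the striatum, from 31 female mice of 8 to 11 weeks. WT and heterozygous Brd1+/- littermates (strain C57BL/6NTac-Brd1) were injected under the skin with saline vehicle (n = 8 WT and n = 7 Brd1+/-) or imipramine. Imipramine (IMN), a tricyclic antidepressant, was given at 10 mg/kg (n = 8 of each genotype). An injection preceded the behavioral tests on each day of testing. The tests ended with a forced swim, and brains were collected after it. The Brd1+/- mice carry in all cells 1 allele with a deletion, made with loxP sites around exons of Brd1, a gene for a scaffold of histone acetyltransferase complexes. Each mouse gave 1 CPu library, so group differences are between animals, and values are in TPM, a share of all transcripts corrected for gene length.

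Oxidative phosphorylation takes place in the inner mitochondrial membrane. Complexes I and II take electrons from NADH and succinate, complex III passes them to cytochrome c, complex IV passes them to oxygen, and complex V, the ATP synthase, uses the proton gradient that the others build, with the exception of complex II, which pumps no protons. Except for complex II, whose subunits are all nuclear, each complex joins nuclear subunits with subunits encoded in mitochondrial DNA. Neurons depend heavily on this supply of ATP, and several subunits have tissue-specific isoforms.

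Brd1 itself was at 18.3 to 26.9 TPM (median 23.0) in WT mice under vehicle, with a median of 13.1 TPM in Brd1+/- mice, and at 14.6 to 22.5 TPM and 11.3 to 13.8 TPM under IMN, so the genotypes did not overlap under either treatment and no library went against its genotype label. Libraries differed in tissue makeup. The summed TPM of 10 markers of striatal projection neurons ran from 276 to 10474 (median 3957) in WT vehicle mice, against 8425 to 9819 in Brd1+/- vehicle, 5050 to 9300 in WT IMN and 6776 to 9749 in Brd1+/- IMN mice. The sum of 10 markers of cortical excitatory neurons ran from 119 to 2500 (median 1787), 122 to 369, 107 to 1377 and 108 to 557 TPM in the same order. WT vehicle mouse 2 had the lowest striatal sum, with Drd1 at 1.37 TPM, and WT vehicle mouse 7, labelled female, had 26.8 TPM summed over 4 Y-linked genes, where every other mouse was at 0.188 TPM or lower. Both mice were kept, and the count and median over all members are also given without the pair for each comparison that uses the WT vehicle group; values by complex or list are not.

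The nuclear subunit genes were abundant. Of the 86, 79 had a mean over the 31 mice of at least 10 TPM, which is 91.9% of them against 38.7% of the 21819 protein-coding genes in the table. The median of those 79 means was 128 TPM, and by complex the medians were 104 (I), 82.8 (II), 136 (III), 179 (IV) and 157 TPM (V). Within groups the SD on the log2(TPM + 1) scale, pooled over the 4 groups, had a median of 0.18 among the 79 genes and of 0.22 among the 9593 genes of the table at this level. The steadiest were Sdha, the flavoprotein of complex II (SD 0.11), and Atp5a1, the alpha subunit of the ATP synthase (SD 0.11). Among genes above 10 TPM, Atp5g1 varied most (SD 0.49), from 35.6 to 194 TPM across mice.

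**Figure D1:**
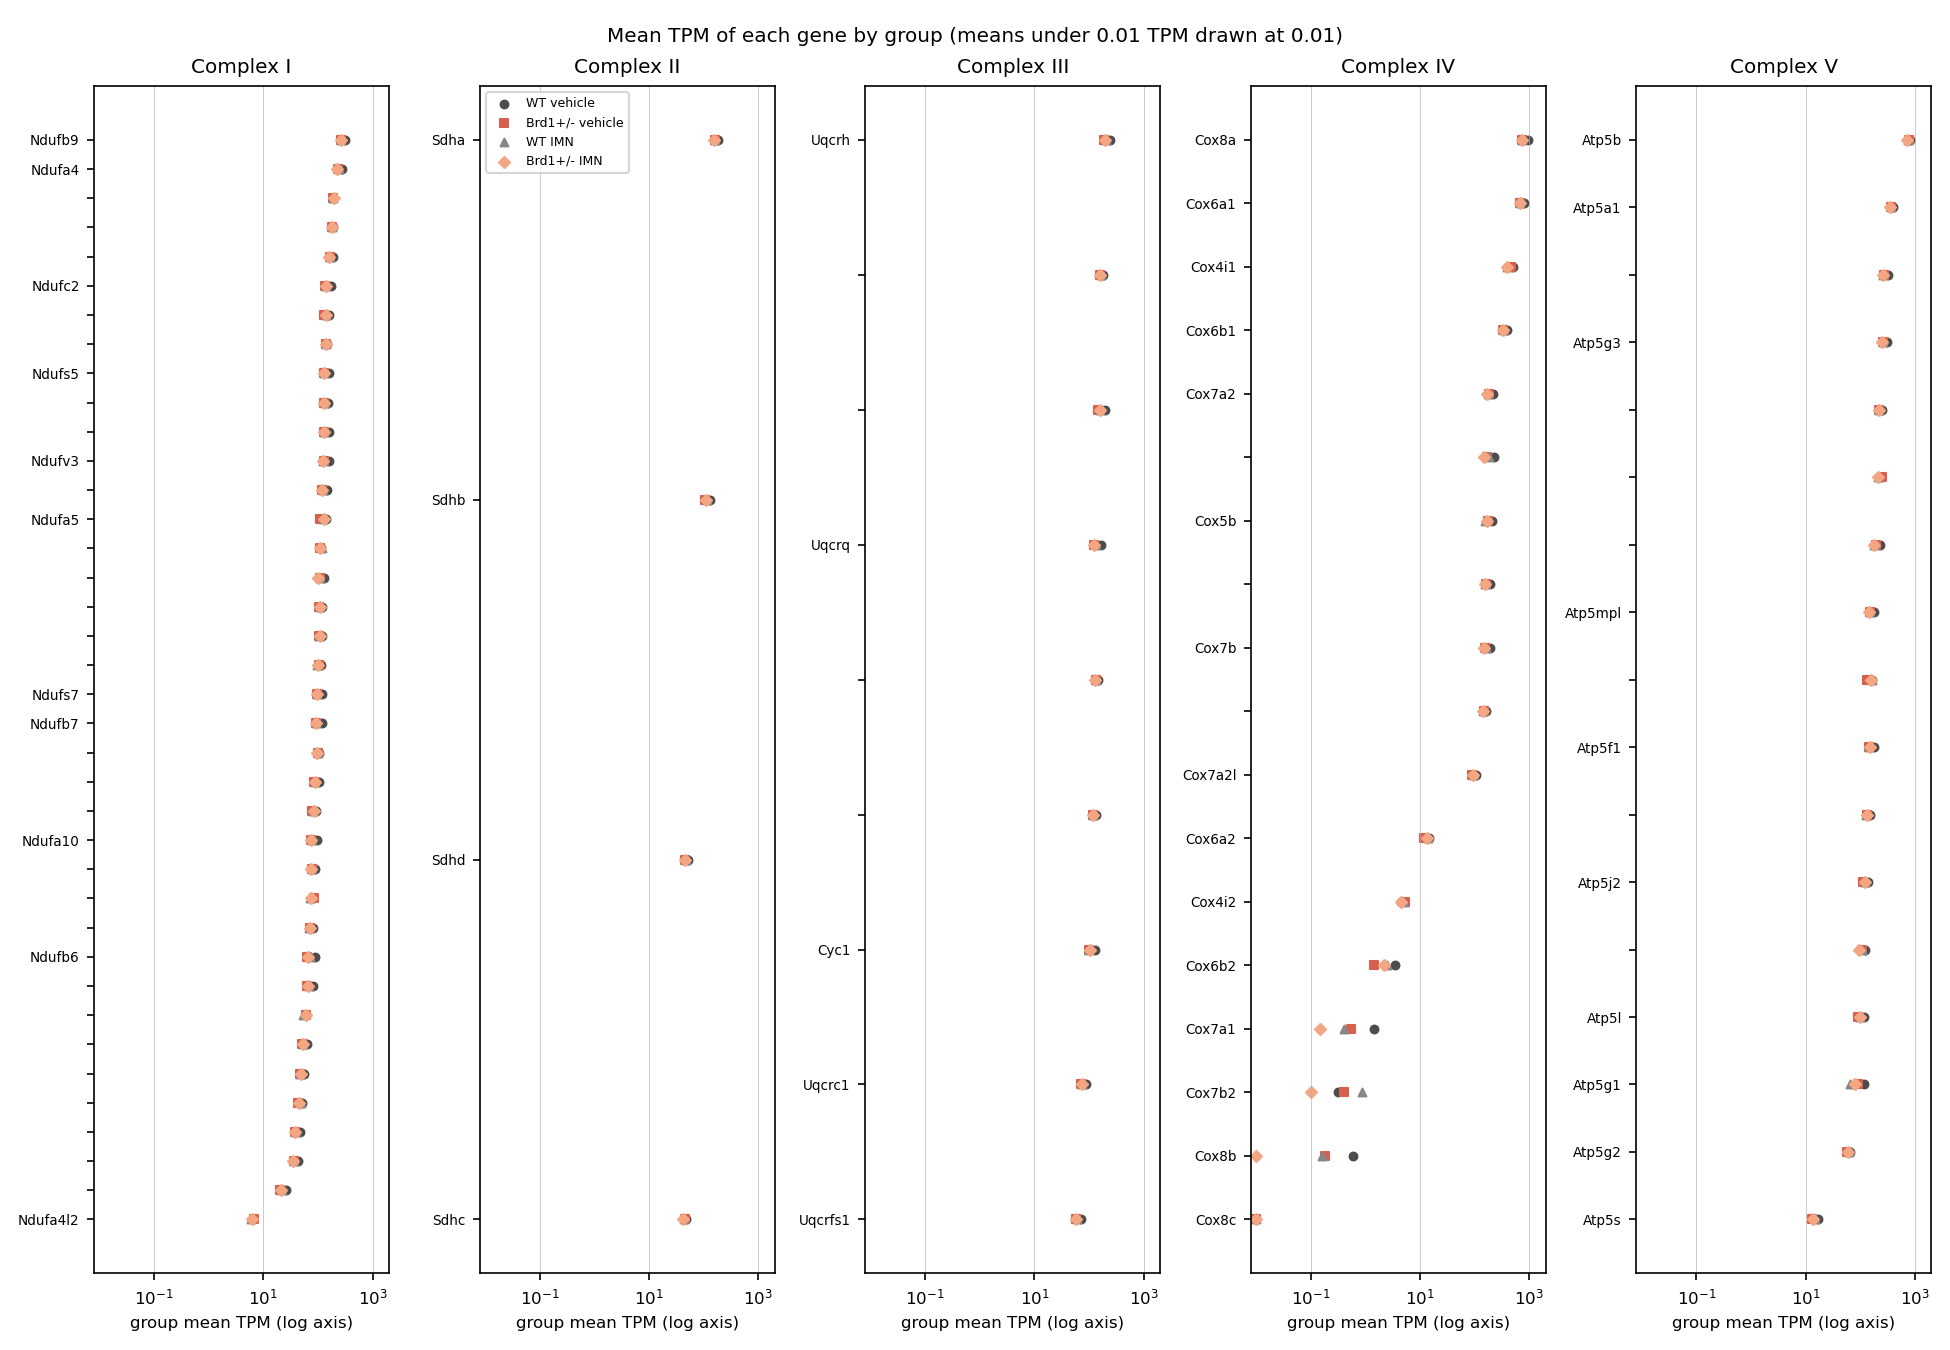
Mean TPM of each of the 86 genes in each of the 4 groups, on a log axis, sorted within each complex by the mean over all mice, with labels for genes named in the text. Of the 86 genes 79 have a mean over all mice of at least 10 TPM, while a set of complex IV isoforms (Cox4i2, Cox6b2, Cox7a1, Cox7b2, Cox8b and Cox8c) and Ndufa4l2 of complex I lie lower.

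The highest levels were those of Cox8a, a nuclear subunit of complex IV, at a mean of 799 TPM, of Atp5b, the catalytic beta subunit of the ATP synthase, at 769 TPM, and of Cox6a1 at 717 TPM. This order was loose: Cox8a was above Atp5b in 18 of 31 mice and Atp5b above Cox6a1 in 19. In complex I the highest was Ndufb9 (272 TPM) and the lowest Ndufa4l2 (6.27 TPM), in complex III Uqcrh (210 TPM) and Uqcrfs1 (62.0 TPM), and in complex V the lowest was Atp5s (14.8 TPM). In complex II Sdha (167 TPM) was above Sdhb, the iron-sulfur subunit (117 TPM), and Sdhb above the membrane anchor Sdhd (48.5 TPM) in all 31 mice, whereas Sdhd was above Sdhc, the other anchor (44.6 TPM), in 23. Cyc1, the cytochrome c1 of complex III, had a mean of 108 TPM.

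Where a subunit has several isoforms, 1 gene held most of the transcripts. Cox4i2, known from lung, made up a mean of 0.918% ± 0.305 (SD, n = 8) of the Cox4i transcripts in WT vehicle mice. Cox6a2, known from heart and skeletal muscle, made up 1.73% ± 0.697 (SD, n = 8) of Cox6a, and Ndufa4l2, known as induced by low oxygen, 2.34% ± 0.450 (SD, n = 8) of the Ndufa4 pair. The muscle isoforms Cox7a1 and Cox8b were listed at 0 in 18 and 24 of the 31 mice, and Cox8c, known from testis, in all 31. The 6 markers of skeletal muscle summed to 6.19 to 20.2 TPM across all mice. Cox6b2, also known from testis, ran from 0 to 6.28 TPM beside 195 to 612 TPM of Cox6b1.

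The c subunit of the ATP synthase rotor is encoded by 3 genes that yield the same mature protein. Atp5g3 was above Atp5g1 in all 31 mice and held 63.2% ± 4.57 (SD, n = 8) of their summed TPM in WT vehicle mice, 63.5% ± 4.87 (SD, n = 7) in Brd1+/- vehicle, 67.2% ± 3.68 (SD, n = 8) in WT IMN and 64.0% ± 3.04 (SD, n = 8) in Brd1+/- IMN mice. Atp5g1 held 23.4% ± 4.58, 22.2% ± 5.71, 16.5% ± 4.82 and 20.5% ± 4.51 (SD) in the same groups. Atp5g1 was above Atp5g2 in 24 mice. These genes are alike in their coding parts, and the table holds 7 pseudogenes named after genes of the 86 (the highest, Uqcrh-ps1, reached 59.8 TPM), so short reads may have been divided between copies and the levels of such genes are uncertain.

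Summed over the 86 genes, WT vehicle mice were at 12500 to 18644 TPM (median 13859), Brd1+/- vehicle mice at 11173 to 13499 (median 11754), WT IMN mice at 11193 to 12921 (median 12001) and Brd1+/- IMN mice at 10770 to 13421 (median 11933). The sum was thus 1.42% ± 0.194 (SD, n = 8) of all TPM in WT vehicle mice and 1.21% ± 0.0828 (SD, n = 7) in Brd1+/- vehicle mice. The highest mouse was WT vehicle mouse 2, which had the highest value of all 31 mice for 64 of the 85 genes listed above 0. WT vehicle mice 6 and 8, whose cortical markers were as low as those of the other groups, were at 13203 and 12690 TPM. In a bulk punch, fewer cells of a type and less RNA per cell cannot be told apart.

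**Figure D2:**
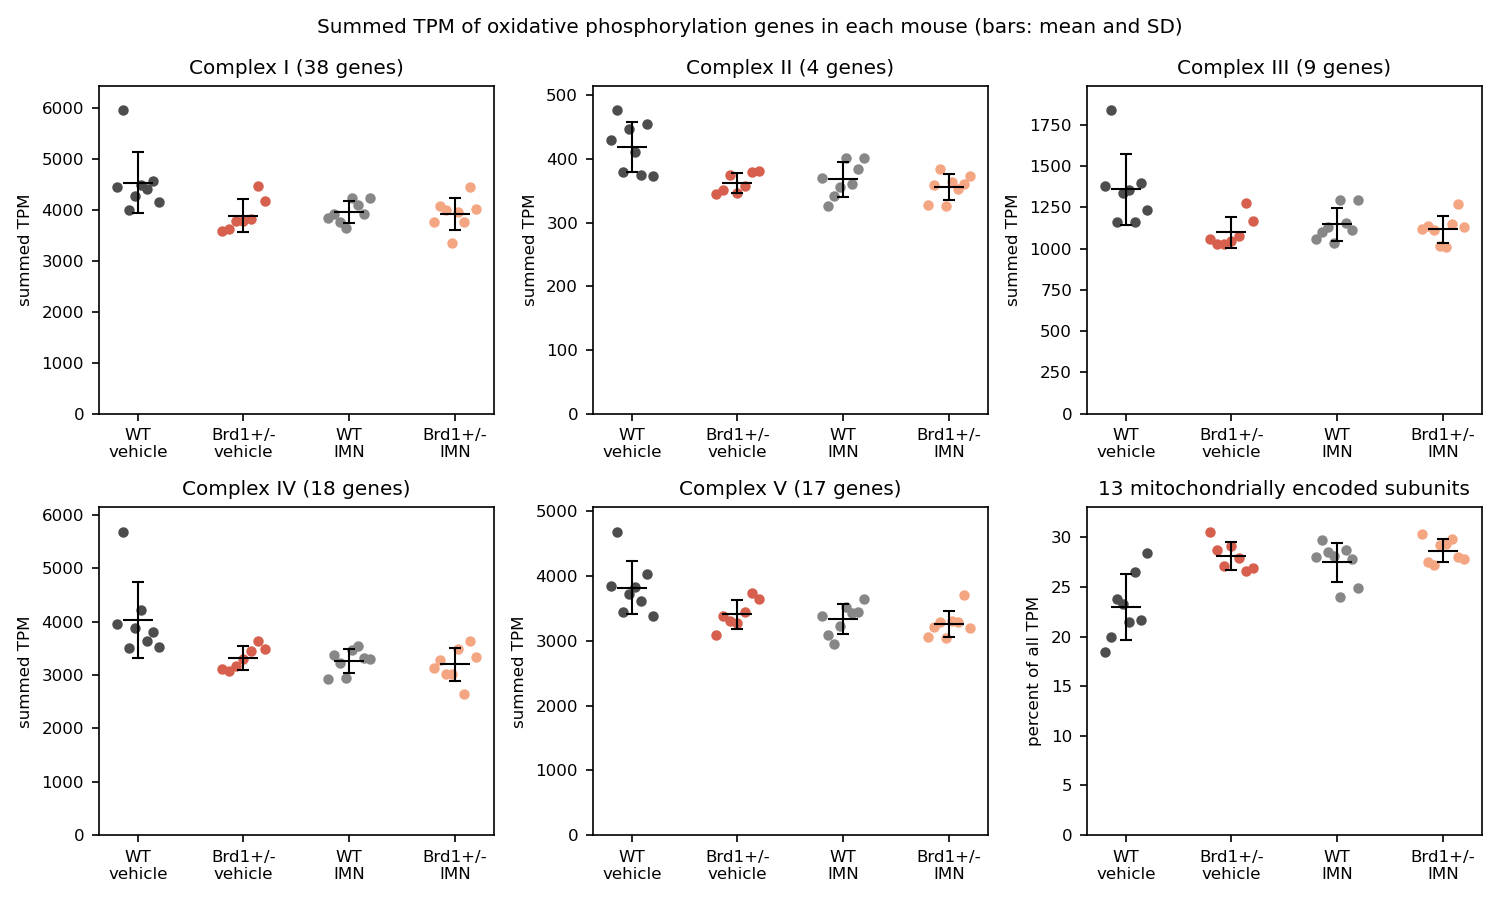
Summed TPM of the nuclear genes of each complex in each mouse, by group, with the group mean and SD, and in the last panel the percentage of all TPM held by the 13 subunits encoded in mitochondrial DNA. In all 5 complexes the WT vehicle mice had the highest mean and overlapped the other groups, and the mitochondrially encoded share was lowest in that group (mean 23.0%).

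The first comparison was between genotypes under vehicle. Estimates were lower in Brd1+/- than in WT mice for 78 of the 84 genes tested, with a median log2 fold change of −0.24, but the whole transcriptome leaned the same way: 72.8% of the 23200 genes tested were lower and their median was −0.13. At the nominal threshold of p under 0.01 used by the study, 12 of the 84 were lower (14.3%), beside 12.1% of all genes tested, and 0 were higher, beside 1.47%. The share of the 84 that was lower is therefore near that of all genes. Of all genes that passed, 89.2% were lower, a share that was 56.5% with median-of-ratios scaling, which centers the typical gene. In limma's moderated test with Benjamini-Hochberg adjustment, 0 of the 84 passed an FDR of 5%, while 47 had an unadjusted p under 0.05, beside 30.9% of all genes. With sample quality weights 31 passed the FDR (36.9%, beside 29.5% of all genes), and with all 4 groups in 1 fit 35 (41.7%, beside 21.7%).

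By complex, the nuclear genes of complex III had a median log2 fold change of −0.30, with 9 of 9 lower and 3 at p under 0.01 (Uqcrfs1, Uqcrc1 and Uqcrq). Complex I had a median of −0.24 with 35 of 38 lower and 3 past the threshold (Ndufb6, Ndufc2 and Ndufa10), complex IV −0.24 with 14 of 16 lower and 2 past it (Cox8a and Cox7a2l), complex V −0.21 with 16 of 17 lower and 3 past it (Atp5f1, Atp5l and Atp5mpl), and complex II −0.19 with 4 of 4 lower and 1 past it (Sdhb). With median-of-ratios scaling the medians of complexes I to V were −0.04, 0.00, −0.10, −0.05 and −0.02, and 22 of the 84 estimates had the other sign.

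Ndufb6, an accessory subunit in the membrane arm of complex I (chromosome 4, 40270591 to 40279421, minus strand, GRCm38), had the smallest p of the 84. WT vehicle mice had 74.7 to 117 TPM (median 85.1) and Brd1+/- vehicle mice 55.7 to 65.5 TPM (median 64.5). Every Brd1+/- mouse was below every WT mouse, which held for 1 of the 84 genes and for 0.289% of all genes tested in either direction. The log2 fold change was −0.48 ± 0.093 (SE; adjusted p = 0.0556 in limma). Ndufb6 stayed under p of 0.01 in all 13 other ways of processing tried, with estimates from −0.51 to −0.27, and in all 15 fits that left out 1 mouse.

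Uqcrfs1, the Rieske iron-sulfur protein of complex III, was at 61.4 to 85.2 TPM (median 69.6) in WT and 50.7 to 67.7 TPM (median 58.0) in Brd1+/- vehicle mice. Its groups overlapped, and the log2 fold change was −0.29 ± 0.078 (SE; adjusted p = 0.0556 in limma). Cox8a (chromosome 19, 7215153 to 7217616, minus strand) was at 768 to 1420 TPM (median 942) in WT and 668 to 791 TPM (median 734) in Brd1+/- mice. The high end of WT was mouse 2, and the log2 fold change was −0.39 ± 0.11 (SE; adjusted p = 0.0556 in limma). Atp5f1, the b subunit of the peripheral stalk of the ATP synthase, was at 144 to 212 TPM (median 166) in WT and 134 to 167 TPM (median 140) in Brd1+/- mice, with a log2 fold change of −0.30 ± 0.086 (SE; adjusted p = 0.0556 in limma). Ndufc2, an accessory subunit of the membrane arm of complex I, was at 142 to 203 TPM (median 178) and 113 to 148 TPM (median 139), with a log2 fold change of −0.35 ± 0.097 (SE; adjusted p = 0.0556 in limma). Unlike Ndufb6, these 4 genes lost p under 0.01 in some of the 13 other ways of processing. Uqcrfs1, Ndufc2 and Atp5f1 kept it in 8 and Cox8a in 9, and their estimates came as near to 0 as −0.08, −0.13, −0.08 and −0.17.

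The other genes past the threshold had log2 fold changes from −0.40 (Uqcrq) to −0.22 (Atp5mpl). Some of the most abundant genes did not reach the threshold. Atp5b was at 686 to 896 TPM in WT and 716 to 850 TPM in Brd1+/- mice (log2 fold change −0.03 ± 0.077, SE), and Cox4i1, the main isoform of complex IV subunit 4, at 340 to 708 and 395 to 518 TPM (−0.13 ± 0.12, SE). With median-of-ratios scaling both estimates were above 0 (0.17 and 0.07). Among the rest of the isoforms Cox6b2 had the lowest estimate of the 84 (−0.88 ± 0.33, SE; adjusted p = 0.0919 in limma) at 6.28 TPM or less in every mouse. Cox4i2 had the highest (0.22 ± 0.13, SE; adjusted p = 0.259 in limma).

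**Figure D3:**
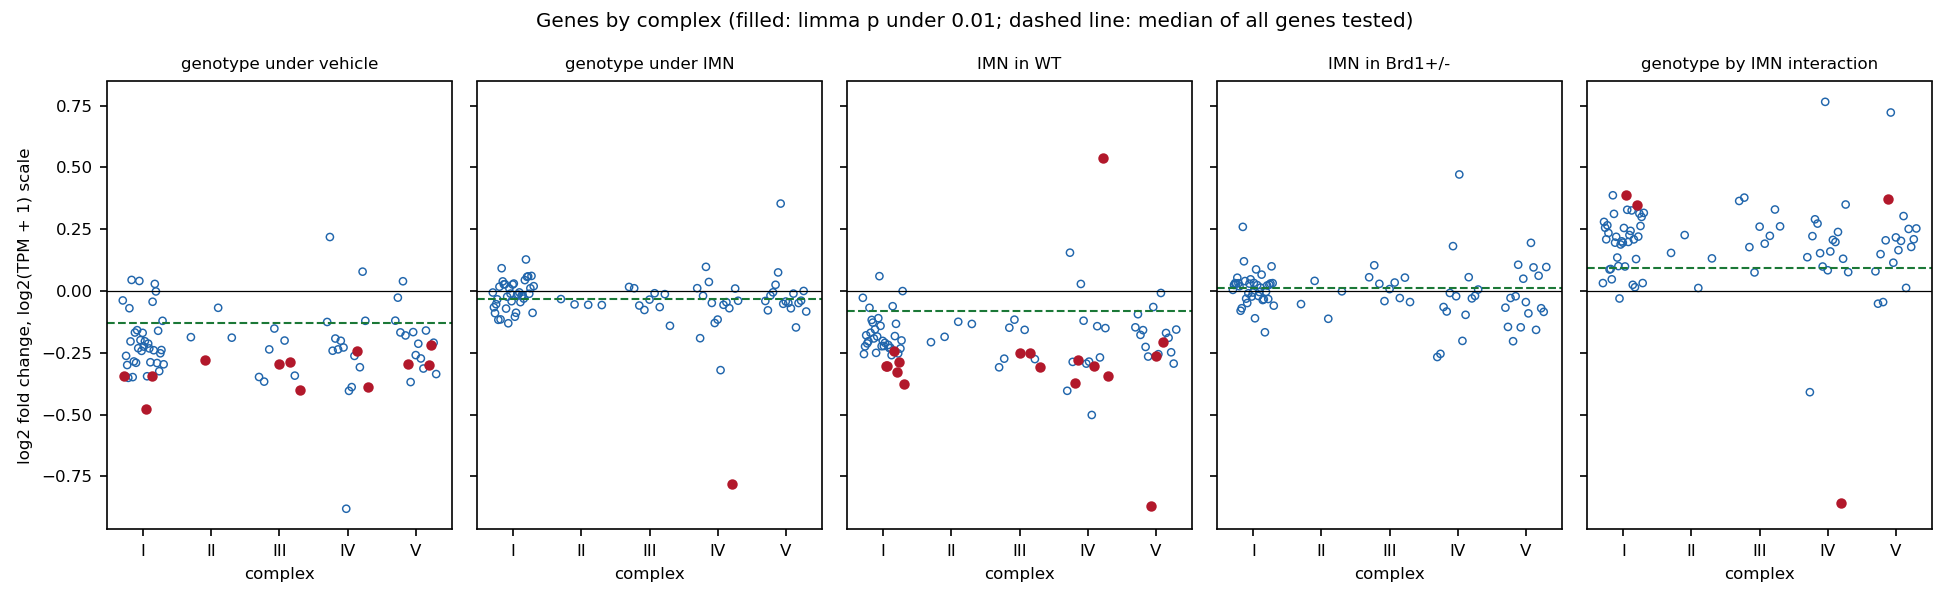
Log2 fold change of each tested gene, on the log2(TPM + 1) scale, by complex, for genotype under vehicle, genotype under IMN, IMN in WT, IMN in Brd1+/- and the interaction. Filled points have a limma p under 0.01 and the dashed line is the median of all genes tested, which lies at −0.13 under vehicle while most of the genes lie below it.

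The 2 features of the libraries that moved with this difference were tissue makeup and the mitochondrially encoded share. Of the 10 cortical markers 2 were lower in Brd1+/- vehicle mice at p under 0.01 and of the 10 striatal markers 1 was higher, with list medians of −2.14 and 1.63. Of 8 interneuron markers 3 were lower (sums of 736 to 1317 TPM in WT and 585 to 858 TPM in Brd1+/- mice), with a list median of −0.22. That list was divided, since Chat and Slc5a7, markers of cholinergic interneurons, had medians of 5.91 and 6.70 TPM in WT and 13.3 and 15.0 TPM in Brd1+/- mice. Of 8 astrocyte markers 1 was higher (Slc4a4), while the list median was −0.16. The lists of oligodendrocyte, microglia and mural markers had medians of −0.39, 0.15 and 0.13, with 0 markers past the threshold in each. Emx1, a cortical marker, was listed at 0 in 1 WT vehicle mouse, and no striatal marker was at 0 in any mouse. The 13 mitochondrially encoded subunits held 18.4% to 28.4% of all TPM in WT and 26.6% to 30.6% in Brd1+/- vehicle mice. TPM has a fixed sum, so values of other genes are shares of what remains. With each mouse rescaled to its sum over genes outside the mitochondrial genome, the median of the 84 was −0.13, that of all genes −0.06, and 2 genes (Ndufb6 and Ndufc2) were lower at p under 0.01. They were 2.38% of the 84, beside 10.05% of all genes in either direction. With median-of-ratios scaling the medians were −0.04 and 0.00, and 56 of 84 were lower (66.7%, beside 49.5% of all genes). There 1 gene (Ndufb6) passed the threshold (1.19%, beside 9.22% of all genes). With the cortical or the striatal marker score as a covariate the median was −0.17 or −0.10, against −0.06 or −0.08 for all genes, and again 1 gene passed, Ndufb6 in both (1.19%, beside 2.40% and 1.48% of all genes). The part of tissue makeup in the difference was not tested beyond these fits. Without WT vehicle mice 2 and 7 the median was −0.15, against −0.12 for all genes. In that fit 6 genes passed p under 0.01, all lower (7.23%, beside 5.83% of all genes in either direction). Leaving out 1 mouse gave 6 genes without Brd1+/- vehicle mouse 1, 2 or 4, 7 without WT vehicle mouse 2, 21 and 22 without WT vehicle mouse 8 and mouse 3, and 25 without Brd1+/- vehicle mouse 6. Over all 15 such fits 7.14% to 29.8% of the genes passed, beside 8.89% to 22.4% of all genes tested, and without Brd1+/- vehicle mouse 6 it was 29.8% beside 12.1%.

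**Figure D4:**
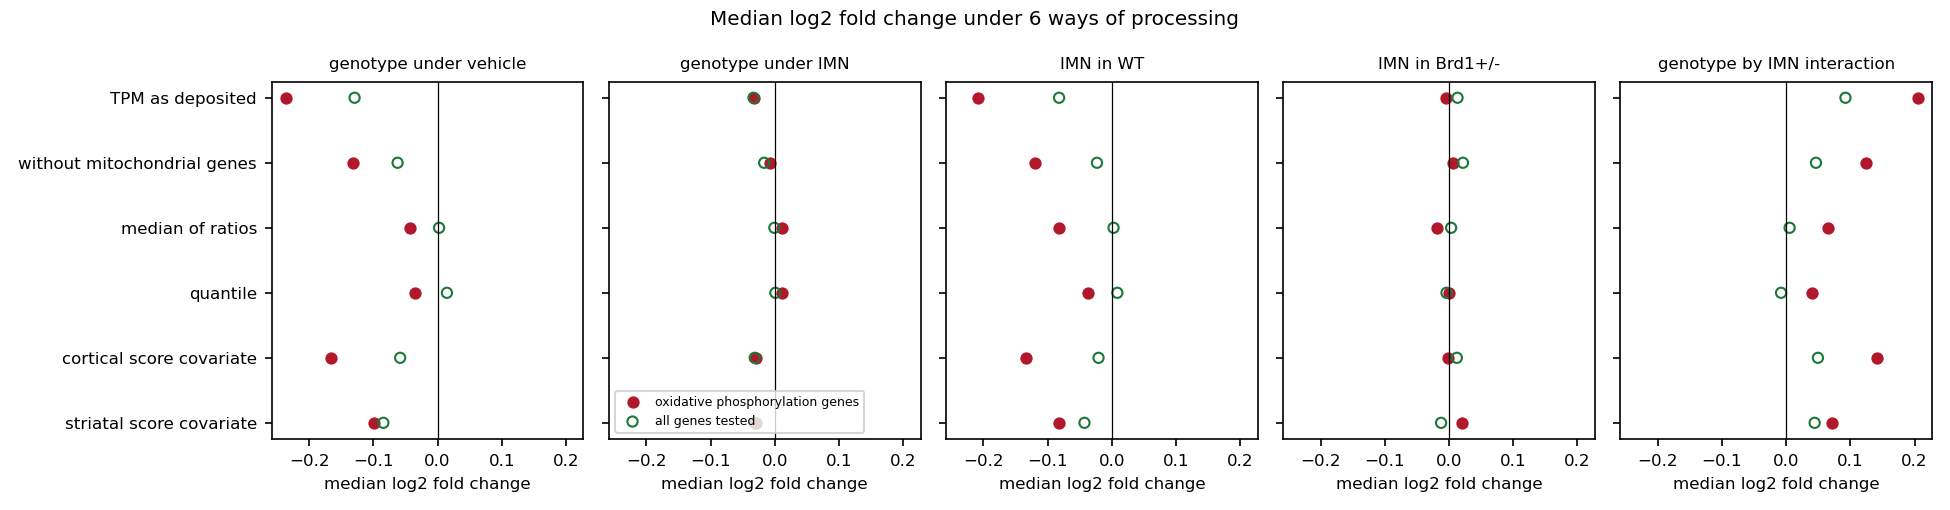
Median log2 fold change of the tested nuclear oxidative phosphorylation genes and of all genes tested in each comparison, under 6 ways of processing. Under vehicle the median of these genes moved from −0.24 with TPM as deposited to −0.04 with median-of-ratios scaling, and in IMN administered WT mice from −0.21 to −0.08.

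The second comparison was between genotypes under IMN. The 83 genes tested had a median log2 fold change of −0.03, the same as the 23339 genes tested, and 58 were lower (69.9%, beside 63.3% of all genes). At p under 0.01, 1 gene was lower (Cox7b2), beside 0.514% of all genes, and 0 were higher, beside 0.189%. No gene of the 83 had groups that did not overlap, beside 0.0129% of all genes. The genes with the smallest p under vehicle overlapped between genotypes here. Ndufb6 was at 59.7 to 85.8 TPM in WT and 56.8 to 78.3 TPM in Brd1+/- IMN mice, and Cox8a at 639 to 865 and 591 to 888 TPM. By limma 0 genes passed an FDR of 5%, and 1 had an unadjusted p under 0.05, beside 3.92% of all genes.

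Cox7b2 is an isoform of Cox7b known mainly from testis (chromosome 5, 71442824 to 71548205, minus strand). It was listed at 0.494, 1.25, 0.659, 0.818, 0.698, 0.801, 1.38 and 0.870 TPM in WT IMN mice 1 to 8. In Brd1+/- IMN mice it was listed at 0.812 TPM in mouse 2 and at 0 in the other 7 of 8. Under vehicle it was listed at 0 in 4 of 8 WT and 3 of 7 Brd1+/- mice and reached 0.984 and 1.20 TPM. It exceeded the filter of 0.1 TPM in 8 of 8 WT and 1 of 8 Brd1+/- IMN mice, so it was tested only because of the group where it is high, and the fitted difference of −0.78 ± 0.13 (SE) on the log2(TPM + 1) scale is given as a description. Cox7b, its abundant counterpart, was at 135 to 190 TPM in WT and 130 to 190 TPM in Brd1+/- IMN mice, so Cox7b2 was at most 0.916% of the pair. The number of reads behind values this low is unknown, and Cox7b2 does not reach the alternative filter of a mean of 1 TPM.

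The third comparison was IMN against vehicle in WT mice. It shares its 8 WT vehicle mice with the genotype comparison under vehicle, so the 2 sets of values are not independent. Of 84 genes tested, 80 were lower under IMN (95.2%) with a median of −0.21, against −0.08 for the 23579 genes tested. Among all genes tested 67.5% were lower. At p under 0.01, 16 were lower (19.0%), beside 5.6% of all genes, and 1 was higher (Cox7b2), beside 1.35%. Of all genes that passed, 80.6% were lower, and 52.1% with median-of-ratios scaling. By limma 0 of the 84 passed an FDR of 5%, and 43 had an unadjusted p under 0.05, beside 23.1% of all genes. With sample quality weights 32 passed the FDR (38.1%, beside 20.6% of all genes), and with all 4 groups in 1 fit 22 (26.2%, beside 10.2%). The total of 17 moved with single mice. It was 4 without WT IMN mouse 1 or 4, 5 without mouse 3 and 9 without mouse 2 or 7 of that group, and 6, 7, 9, 10 and 28 without WT vehicle mouse 5, 1, 7, 4 and 3. Over the 16 fits that left out 1 mouse 4.76% to 33.3% of the genes passed, beside 3.88% to 15.3% of all genes tested. Without WT vehicle mice 2 and 7 together the total was 6 (7.23%, beside 2.71% of all genes), and the median was −0.13, against −0.07 for all genes.

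By complex the count was 6 of 38 in complex I (among them Ndufv3, Ndufs5, Ndufb6, Ndufs7 and Ndufb7), 0 of 4 in complex II, 3 of 9 in complex III (Uqcrfs1, Uqcrc1 and Uqcrq), 4 lower and 1 higher of 16 in complex IV (lower Cox5b, Cox7a2, Cox8a and Cox6a1) and 3 of 17 in complex V (Atp5g1, Atp5g3 and Atp5j2). The medians were −0.21, −0.16, −0.25, −0.28 and −0.19 for complexes I to V. Ndufs7 belongs to the catalytic core of complex I, and the others named for it are accessory subunits.

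Atp5g1 (chromosome 11, 96068852 to 96075670, minus strand) had the largest log2 fold change, in either direction, of this comparison on the log2(TPM + 1) scale. It was at 60.6 to 194 TPM (median 115) in WT vehicle and 35.6 to 94.6 TPM (median 60.7) in WT IMN mice. The groups overlapped, and the log2 fold change was −0.87 ± 0.22 (SE; adjusted p = 0.141 in limma). Atp5g3 was at 262 to 404 TPM (median 300.2) and 235 to 282 TPM (median 260), a log2 fold change of −0.26 ± 0.081 (SE; adjusted p = 0.141 in limma). Atp5g2, the remaining gene for subunit c, was at 57.7 to 74.6 and 57.0 to 72.6 TPM and did not reach the threshold.

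Cox5b, a nuclear subunit on the matrix side of complex IV (chromosome 1, 36691449 to 36693681, plus strand), was at 175 to 308 TPM (median 192) in WT vehicle and 145 to 172 TPM (median 156) in WT IMN mice. All IMN mice were below all vehicle mice, which held for 1 of the 84 genes and for 0.144% of all genes in either direction. The log2 fold change was −0.37 ± 0.098 (SE; adjusted p = 0.141 in limma). Ndufv3, an accessory subunit of the NADH-binding module, was at 118 to 212 TPM (median 168) and 100.3 to 147 TPM (median 122), a log2 fold change of −0.38 ± 0.11 (SE; adjusted p = 0.141 in limma). Cox7a2, the form of subunit 7a outside muscle, was at 191 to 296 TPM (median 210) and 153 to 199 TPM (median 180), a log2 fold change of −0.30 ± 0.096 (SE; adjusted p = 0.141 in limma). Over 13 other ways of processing Cox5b kept p under 0.01 in 10, Ndufv3 in 8, Cox7a2 in 7 and Atp5g3 in 6, with estimates as near to 0 as −0.19, −0.21, −0.13 and −0.10. For Cox7b2 the log2 fold change was 0.54 ± 0.15 (SE), again a description, since it exceeded the filter in 4 of 8 WT vehicle and 8 of 8 WT IMN mice.

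**Figure D5:**
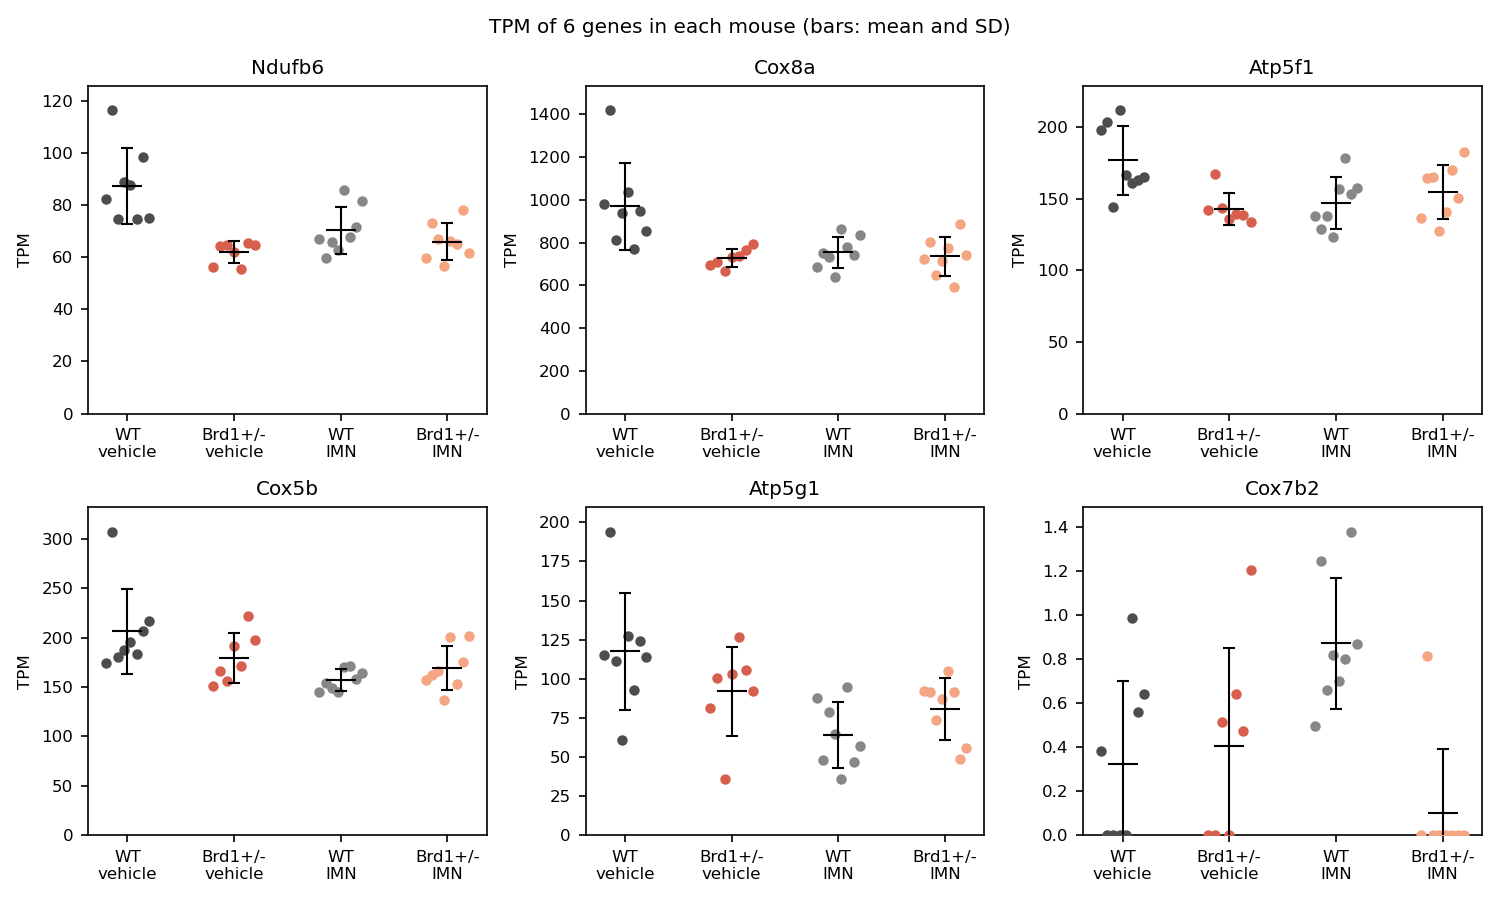
TPM of Ndufb6, Cox8a, Atp5f1, Cox5b, Atp5g1 and Cox7b2 in each mouse, by group, with the group mean and SD. All Brd1+/- vehicle mice lie below all WT vehicle mice for Ndufb6, all WT IMN mice lie below all WT vehicle mice for Cox5b, and Cox7b2 is listed at 0 in 7 of 8 Brd1+/- IMN mice.

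The libraries moved with this comparison too. The mitochondrially encoded share was 23.98% to 29.8% in WT IMN mice, and of the cortical markers 1 of 10, and of the striatal markers 0 of 10, passed the threshold, although the medians of the 2 lists differed by −2.08 and 1.48 on the log2 scale. Emx1 was listed at 0 in 2 WT IMN mice. Markers of erythrocytes were lower for 2 of 5 genes, with sums of 211 to 403 TPM under vehicle and 163 to 323 TPM under IMN. Of 8 interneuron and of 7 endothelial markers 1 each was lower, with list medians of −0.14 and 0.08, and Chat and Slc5a7 had medians of 14.3 and 15.0 TPM under IMN. In addition, of the 2 markers of choroid plexus and ependyma that could be tested 1 was higher. Rescaled without the mitochondrial genes, the median of the 84 was −0.12, against −0.02 for all genes, and Atp5g1 and Cox5b stayed lower at p under 0.01. In either direction 3.57% of the 84 passed, beside 5.56% of all genes. With median-of-ratios scaling the median was −0.08 against 0.00 for all genes, and Atp5g1 alone stayed lower (in either direction 2.38% passed, beside 5.97% of all genes). The estimate for Atp5g1 ran from −0.88 to −0.69 over 13 other ways of processing, with p under 0.01 in 12. With the cortical marker score as a covariate the median was −0.13 against −0.02 for all genes, and 3 of the 84 passed p under 0.01 (3.57%, beside 1.61% of all genes). With the striatal marker score the median was −0.08 against −0.04, 0 of the 84 passed p under 0.01, and 5 had an unadjusted p under 0.05 in limma (5.95%, beside 6.08% of all genes).

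The fourth comparison was IMN against vehicle in Brd1+/- mice. The 82 genes tested were divided evenly, 43 lower and 39 higher, with a median of 0.00 against 0.01 for all 23020 genes, of which 45.6% were lower. At p under 0.01, 0 were lower, beside 0.964% of all genes, and 0 higher, beside 0.869%, and no gene had groups that did not overlap, beside 0.0999%. By limma 0 passed an FDR of 5%, and 2 genes, Ndufa5 (0.26 ± 0.11, SE) and Atp5b (−0.15 ± 0.067, SE), had an unadjusted p under 0.05, beside 7.09% of all genes. Atp5g1 was at 35.6 to 126 TPM under vehicle and 48.6 to 105 TPM under IMN in these mice, and Cox5b at 151 to 222 and 137 to 202 TPM.

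Whether the effect of IMN differed between genotypes was tested by the interaction over all 31 mice. For 80 of 85 genes the effect was more positive in Brd1+/- than in WT mice, with a median difference of 0.21, against 0.09 for the 25394 genes tested. It was less positive for 5.88% of the 85 and for 32.8% of all genes. The cortical and striatal marker lists had interaction medians of 2.02 and −1.62, with 0 of 10 past p under 0.01 in each, and all 13 mitochondrially encoded subunits had negative estimates (median −0.26). With the cortical score as a covariate the median of the 85 was 0.14, against 0.05 for all genes, and with the striatal score 0.07, against 0.04. At p under 0.01, 3 were higher (3.53%), beside 2.97% of all genes, and 1 was lower (1.18%), beside 0.78%. The 3 were Ndufb6 (0.39 ± 0.12, SE), Atp5f1 (0.37 ± 0.12, SE) and Ndufs5, a small accessory subunit of complex I (0.35 ± 0.12, SE), and the gene that was lower was Cox7b2 (−0.86 ± 0.24, SE). Each had an adjusted p of 0.261 in limma, so none passed an FDR of 5%, and 22 of the 85 had an unadjusted p under 0.05, beside 16.2% of all genes. With sample quality weights 8 passed the FDR (9.41%, beside 10.3% of all genes). Ndufs5 was at 136 to 247 TPM in WT vehicle and 104 to 144 TPM in WT IMN mice, and at 115 to 148 and 122 to 142 TPM in Brd1+/- mice. With median-of-ratios scaling Cox7b2 alone passed the threshold (1.18%, beside 3.17% of all genes). Over 12 other ways of processing Ndufb6 and Ndufs5 passed in 7 and Atp5f1 in 6. Without WT vehicle mice 2 and 7 the threshold was passed by 3 genes with a higher and 1 with a lower estimate (4.76% in all, beside 1.62% of all genes), and the median was 0.13 against 0.08. The total of 4 was 7, 8 and 10 without WT vehicle mouse 6, 3 and 8, and 9 without Brd1+/- vehicle mouse 6 (8.24%, 9.52%, 11.8% and 10.6%, beside 9.28%, 4.09%, 10.2% and 3.71% of all genes), and Ndufs5 passed in 18 of 31 fits that left out 1 mouse. Of all genes that passed, 20.8% were lower, and 49.7% with median-of-ratios scaling.

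Complex II, which has no mitochondrially encoded subunit, had the median nearest to 0 of the 5 complexes in the 3 tests that use WT vehicle mice (−0.19, −0.16 and 0.14). Under vehicle, Sdhb was at 112 to 160 TPM in WT and 93.3 to 128 TPM in Brd1+/- mice (log2 fold change −0.28 ± 0.088, SE; adjusted p = 0.0627 in limma), and Sdha at 151 to 202 and 155 to 175 TPM (−0.19 ± 0.069, SE; adjusted p = 0.0901 in limma). Sdhc, at 41.5 to 59.0 and 39.9 to 52.2 TPM, and Sdhd, at 44.6 to 66.4 and 41.8 to 54.2 TPM, did not reach the threshold. With median-of-ratios scaling Sdha and Sdhc were above 0 (0.01 and 0.12), Sdhd was at 0.00 and Sdhb at −0.09. Cyc1 was at 97.2 to 192 TPM in WT and 86.4 to 112 TPM in Brd1+/- vehicle mice (−0.35 ± 0.12, SE; adjusted p = 0.0778 in limma).

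The partners of these genes in the mitochondrial genome had estimates of the opposite sign. All 13 mitochondrially encoded subunits had higher TPM in Brd1+/- than in WT vehicle mice, with a median log2 fold change of 0.31, and 3 of them were higher at p under 0.01, beside 1.47% of all genes: mt-Nd4l (0.57), mt-Nd5 (0.48) and mt-Nd6 (0.41), all subunits of complex I. In IMN against vehicle administered WT mice 2 of the 13 were higher (mt-Nd4l and mt-Nd5) and the median was 0.28. With median-of-ratios scaling the medians were 0.50 and 0.41. Genotype under IMN and IMN in Brd1+/- mice gave medians of 0.04 and 0.02, with 0 of 13 past the threshold. mt-Nd4l was at 4980 to 10688 TPM in WT vehicle, 9620 to 13723 in Brd1+/- vehicle, 9604 to 12872 in WT IMN and 10149 to 14258 in Brd1+/- IMN mice.

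Other genes of energy metabolism were taken from 5 lists. Under vehicle, where 12.1% of all genes were lower at p under 0.01, 8 of 44 assembly factors were lower and 0 higher (median −0.20), 4 of 15 genes of the TCA cycle (median −0.20), 6 of 16 of glycolysis (median −0.31), 1 of 13 transcriptional regulators of mitochondria (median −0.05) and 0 of 11 carriers and exchangers (median −0.13). The genes with the smallest p were Uqcc3, Sco2 and Sdhaf2 among assembly factors, Pdha1, Idh3a and Mdh2 in the TCA cycle list, Pgam1, Ldha and Pgk1 in glycolysis, and Yy1 among regulators. In IMN against vehicle administered WT mice, where 5.6% of all genes were lower, the counts were 5 (median −0.17), 4 (median −0.20), 4 (median −0.32), 2 (median −0.14) and 1 (median −0.19), with 0 higher in each list. Esrrg, an orphan nuclear receptor that activates genes of oxidative metabolism, was at 5.75 to 11.8 TPM under vehicle and 4.63 to 7.31 TPM under IMN in WT mice (log2 fold change −0.68 ± 0.13, SE; adjusted p = 0.132 in limma). With median-of-ratios scaling the medians of these 5 lists under vehicle were −0.01, −0.01, −0.12, 0.12 and 0.06, and the counts of lower genes were 0, 1, 2, 0 and 0, with 1 gene higher in the TCA cycle list and 1 among regulators. In that fit 1207 of all 23200 genes tested were lower at p under 0.01 and 931 higher. For IMN in WT mice the medians were −0.05, −0.07, −0.19, −0.01 and −0.06 and the counts of lower genes 0, 3, 3, 1 and 0. There 734 of all 23579 genes tested were lower at p under 0.01 with this scaling.

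In IMN against vehicle administered Brd1+/- mice 1 assembly factor (Ndufaf4, log2 fold change −0.24) and 1 gene of the TCA cycle list (Ogdh, −0.20) were lower, beside 0.964% of all genes, and in the genotype comparison under IMN 0 genes of these lists passed the threshold. In the interaction, where 2.97% of all genes were higher, Pdha1 (0.35), Sdhaf1 (0.33) and Pgam1 (0.46) passed it, and with median-of-ratios scaling Pgam1 alone of these did.

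Promoters were examined for what the genes share beyond their symbols. RefSeq windows on GRCm38 from 250 bases before to 50 after the start of the gene were at hand for 69 of the 86. The letters GCGCATGC, a core of sites bound by the respiratory factor NRF1, were found on either strand in 10 of 69 (14.5%) and in 2.80% of all 27025 windows. The letters CCGGAAG, of ETS factors such as GABP, were found in 15 (21.7%, against 9.12% of all windows), and AAGATGGCG, of YY1, in 6 (8.70%, against 1.49%). At least 1 of the 3 was found in 26 windows (37.7%, against 12.5%). The NRF1 letters overlap in part with their own reverse complement. A match is a description of the letters and was not tied to any difference in level.

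The windows of 3 genes that were lower under vehicle and of Cox7b2 are shown because they differ in these letters. Each runs 5′ to 3′ on the minus strand from 250 bases before to 10 after the start, with the motif letters in capitals. In the part shown Ndufb6 holds 1 ETS match, 232 bases before the start, and Cox8a 1, 5 bases before it. Atp5l, the g subunit of the ATP synthase, holds an NRF1 match and an ETS match, 240 and 212 bases before the start, and Cox7b2 holds none. They lie at chr4:40279412-40279671, chr19:7217607-7217866, chr9:44920733-44920992 and chr5:71548196-71548455.
Ndufb6: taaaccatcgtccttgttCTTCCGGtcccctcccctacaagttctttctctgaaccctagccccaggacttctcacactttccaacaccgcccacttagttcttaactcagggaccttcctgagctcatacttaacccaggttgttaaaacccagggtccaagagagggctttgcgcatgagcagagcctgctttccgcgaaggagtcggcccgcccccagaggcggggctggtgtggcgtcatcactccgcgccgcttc
Cox8a: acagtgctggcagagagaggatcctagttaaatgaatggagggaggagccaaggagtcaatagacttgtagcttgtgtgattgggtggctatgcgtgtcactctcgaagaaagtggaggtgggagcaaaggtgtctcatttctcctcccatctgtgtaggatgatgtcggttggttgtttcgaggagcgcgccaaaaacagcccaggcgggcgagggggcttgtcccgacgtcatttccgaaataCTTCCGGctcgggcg
Atp5l: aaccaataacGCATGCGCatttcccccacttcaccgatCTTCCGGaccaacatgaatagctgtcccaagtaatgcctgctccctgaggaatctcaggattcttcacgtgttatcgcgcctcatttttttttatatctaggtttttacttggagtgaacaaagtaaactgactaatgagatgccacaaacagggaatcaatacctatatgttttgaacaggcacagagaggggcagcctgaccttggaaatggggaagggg
Cox7b2: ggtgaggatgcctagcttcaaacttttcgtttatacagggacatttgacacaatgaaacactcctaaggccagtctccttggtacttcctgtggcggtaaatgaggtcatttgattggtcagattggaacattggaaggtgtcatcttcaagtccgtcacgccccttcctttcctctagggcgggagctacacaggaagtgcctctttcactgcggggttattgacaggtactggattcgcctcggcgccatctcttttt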

How the data were processed

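RNA from CPu punches of 31 mice was sequenced as single-end reads. The authors ran FastQC and Trimmomatic, aligned with HISAT2 2.1.0 to GRCm38 and deposited TPM values from StringTie 1.3.4 for 52636 genes, 1 column per mouse. TPM sums to 999787 to 999918 in each mouse, so it holds no depth per mouse and no counting error can be given. The study states only a minimum number of reads. Of the identifiers, 52403 had a name in GENCODE M21.

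Groups came from the labels, which give no batch. Each comparison was fitted with limma 3.58.1 (R 4.3.3) on log2(TPM + 1), for the genes that exceeded 0.1 TPM in 7 or more of the mice compared. The prior variance followed a trend, and p-values were adjusted by Benjamini-Hochberg over all genes tested. Fold changes on this scale understate those of low genes. The study tested counts with edgeR, which the deposited TPM do not allow. The fits were tested on simulated data. The members and lists were chosen with earlier results of these data known. Named genes were up to 5 with the smallest p under 0.01 per direction and comparison, the highest and lowest of each complex, isoform groups, complex II and Cyc1, and up to 3 per list and comparison. Atp5a1, Ndufa5, Drd1 and the further genes listed as past the threshold were named after their values were seen. Alternatives were another pseudocount (0.1), other filters, scalings, weights, covariates, a block and leaving out mice. Leaving out WT vehicle mice 2 and 7 and rescaling without mitochondrial genes were chosen after the data were seen. Promoters came from RefSeq (GRCm38.p6). Single results on a few genes are not reported here.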

Additional observations from a re-analysis of the deposited data

Results flagged for a closer look

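Of 68 sets of values (a gene or a complex sum in 1 group) checked for a mouse far from the others of its group, 11 had one. Chance gives about 1 in 20 for independent sets. These are not independent, since complex sums hold genes also checked singly and the same mice enter many sets. The number 11 can therefore not be set against that rate. WT vehicle mouse 2 lay above its group for the summed TPM of complex I (5959, next 4567), complex III (1839, next 1401) and complex IV (5684, next 4218), and for Cox5b (308 TPM, next 217), Cox8a (1420 TPM, next 1037) and Ndufs5 (247 TPM, next 164). This mouse also had the lowest striatal marker sum, and the part of tissue makeup was not tested. Brd1+/- IMN mouse 7 lay above its group for complex V (3703, next 3304) and Ndufc2 (167 TPM, next 145), and Brd1+/- IMN mouse 5 for Ndufv3 (165 TPM, next 128). Brd1+/- vehicle mouse 2 lay above its group for Atp5f1 (167 TPM, next 143). Cox7b2 was at 0.812 TPM in Brd1+/- IMN mouse 2 and listed at 0 in the others.

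By the limma interaction 4 genes passed p under 0.01, Ndufb6 (0.39), Atp5f1 (0.37), Ndufs5 (0.35) and Cox7b2 (−0.86), none at an FDR of 5% as fitted. They were 4.71% of the 85 tested, beside 3.74% of all genes. With the striatal marker score as a covariate 0 of the 85 passed, beside 0.52% of all genes. Cox7b2 reached at most 1.38 TPM in any mouse. Over the alternatives run the limma adjusted p of these 4 genes ranged from 0.0160, 0.0529, 0.0406 and 0.0188 up to 0.998, so all but Atp5f1 passed in at least 1 of them. The lowest, for Ndufb6, came with sample quality weights, where 9.41% of the members and 10.3% of all genes passed.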

How the results depend on the processing

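None of the 16 estimates of genes named for the smallest p in a comparison turned its direction under the alternatives run. The 16 were chosen by p in these same mice and include Cox7b2, so a kept direction gives no separate support. Other members turned direction with median-of-ratios scaling, 22 of 84 under vehicle and 11 of 84 for IMN in WT mice, among them Sdha, Sdhc, Sdhd, Atp5b and Cox4i1 under vehicle. The counts of nuclear subunit genes at p under 0.01 did move. Under vehicle (12) the count was 1 with median-of-ratios scaling, 2 with quantile normalization, 22 with sample quality weights, 32 with all 4 groups in one fit, 1 with either marker score, 2 without mitochondrial genes and 6 without WT vehicle mice 2 and 7. As shares these were 1.19% (9.22% of all genes), 2.38% (9.53%), 26.2% (26.5%), 38.1% (21.2%), 1.19% (2.40% cortical, 1.48% striatal), 2.38% (10.05%) and 7.23% (5.83%). The median was −0.0435 and −0.0352 under the first pair. For IMN in WT mice (17) the counts were 2, 2, 32, 26, 3 (cortical score), 0 (striatal score), 3 and 6 in the same order (all genes 5.97%, 5.80%, 20.3%, 14.4%, 1.61%, 1.28%, 5.56% and 2.71%), and the median was −0.0377 with quantile normalization. For the interaction (4) they were 1 and 1 with the scalings, 10 with weights, 1 and 0 with the scores and 2 without mitochondrial genes (all genes 3.17%, 3.39%, 13.6%, 1.22%, 0.52% and 3.21%, beside 11.8% of the members with weights), with medians of 0.0653, 0.0407 and, with the striatal score, 0.0712. For genotype under IMN (1) the count was 0 with a mean of 1 TPM required, since Cox7b2 is then not tested. The cause was not tested otherwise.

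At an FDR of 5%, 31 genes passed under vehicle and 32 for IMN in WT mice with weights, 35 and 22 with all groups in one fit, and 6 under vehicle with the 1 TPM filter. Of all genes, 29.5% and 20.6%, 21.7% and 10.2%, and 10.5% passed under these settings. With a pseudocount of 0.1, 1 gene (Cox7b2) passed for genotype under IMN (1.20%, beside 0.00857% of all genes), again a description. With weights 8 of 85 passed for the interaction (9.41%, against 10.3% of all genes).

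Mouse numbers did not pair the groups (correlations of same-numbered mice from −0.413 to 0.433). With the number as a replicate block the counts were 8 under vehicle (6 at an FDR of 5%), 10 for IMN in WT and 1 for IMN in Brd1+/- mice. Under vehicle these were 9.52% and 7.14% of the members, against 17.7% and 15.4% of all genes, and in the others 11.9% and 1.22% against 5.08% and 2.15%. In that last comparison 3 of 7 numbers matched best, and 0 in the others.

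Leaving out 1 mouse gave 6 to 25, 1 to 2, 4 to 28, 0 to 1 and 3 to 10 genes in the 5 comparisons, where 8.89% to 22.4%, 0.55% to 1.09%, 3.88% to 15.3%, 1.34% to 2.18% and 2.16% to 10.2% of all genes passed. TPM holds no depth per mouse, so the precision of low genes such as Cox7b2 is unknown.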
